A study of Arabidopsis thaliana with 12 samples.

Results

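The heat shock transcription factors of Arabidopsis thaliana were followed through 10 genes, chosen by their locus identifiers among 22054 genes in the deposited tables. They were HSFA1A (AT4G17750), HSFA1B (AT5G16820), HSFA1D (AT1G32330), HSFA1E (AT3G02990), HSFA2 (AT2G26150), HSFA3 (AT5G03720), HSFA7A (AT3G51910), HSFA7B (AT3G63350), HSFB1 (AT4G36990) and HSFB2A (AT5G62020). All 10 were listed in both tables and passed the filter on low values, as did 20623 of the 21623 genes listed in both. HSFA7B passed only through the libraries from treated seedlings, so it had to differ between the treatments.

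Whole seedlings, 7 days after germination, of ap1/cal, a mutant of the floral meristem identity genes AP1 and CAL, and of the wild type Col-0 were compared. Both genotypes stayed for 24 h on MS plates with 1 mM SNP (sodium nitroprusside, a donor of nitric oxide) or without it (Mock). The 4 groups, ap1/cal SNP, ap1/cal Mock, Col-0 SNP and Col-0 Mock, held 3 poly(A) RNA-seq libraries each. The questions were which factors changed their transcript level under SNP in each genotype, and whether the change differed between ap1/cal and Col-0. The study used ap1/cal because its inflorescence overproduces meristems, a trait of flowering plants and not of the seedling stage sampled here.

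Heat shock factors bind heat shock elements, inverted repeats of the unit nGAAn, upstream of chaperone genes. In Arabidopsis the HSFA1 factors are present before stress and are held inactive by HSP70 and HSP90 chaperones. Once released, they switch on a further set of factors, HSFA2 and the HSFA7 pair among them, that prolong the response. Class A factors carry an activation motif, whereas most class B factors lack it and act as repressors or as coregulators of class A.

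The region upstream of each annotated transcript start was read from the RefSeq annotation of TAIR10.1, in a window of 300 bases. Positions are counted backwards from the base just before the start (-1). A 2-unit heat shock element was taken as GAANNTTC or TTCNNGAA, and a 3-unit element as an overlap of both that holds 3 units. The core of the dehydration-responsive element (DRE), which DREB2A binds, was taken as ACCGAC or GCCGAC. Each was searched on both strands. HSFA2, HSFA7A and HSFA7B held a 3-unit element, shown here with the units in capitals because this form was found in 3 of the 10 factors and in 0.485% of 27443 protein-coding genes.
HSFA2, -88 to -76: GAAgtTTCtgGAA
HSFA7A, -192 to -180 and again -142 to -130: TTCcaGAAgtTTC
HSFA7B, -157 to -145: TTCcgGAActTTC

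The whole windows of these 3 factors are given with every element in capitals. All lie on the plus strand, HSFA2 at chr2:11135324-11135623, HSFA7A at chr3:19264841-19265140 and HSFA7B at chr3:23398936-23399235 of TAIR10.1.
HSFA2: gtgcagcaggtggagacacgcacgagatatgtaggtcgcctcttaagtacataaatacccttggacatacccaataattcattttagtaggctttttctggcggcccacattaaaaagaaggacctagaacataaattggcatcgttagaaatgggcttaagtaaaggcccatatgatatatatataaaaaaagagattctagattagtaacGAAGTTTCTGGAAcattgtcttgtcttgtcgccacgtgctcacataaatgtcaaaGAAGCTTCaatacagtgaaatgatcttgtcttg
HSFA7A: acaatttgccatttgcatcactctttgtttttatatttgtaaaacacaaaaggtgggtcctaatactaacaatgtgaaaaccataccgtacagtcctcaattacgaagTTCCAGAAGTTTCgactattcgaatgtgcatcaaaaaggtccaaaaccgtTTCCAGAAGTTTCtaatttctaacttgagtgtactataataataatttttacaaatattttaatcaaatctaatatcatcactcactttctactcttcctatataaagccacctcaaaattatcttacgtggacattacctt
HSFA7B: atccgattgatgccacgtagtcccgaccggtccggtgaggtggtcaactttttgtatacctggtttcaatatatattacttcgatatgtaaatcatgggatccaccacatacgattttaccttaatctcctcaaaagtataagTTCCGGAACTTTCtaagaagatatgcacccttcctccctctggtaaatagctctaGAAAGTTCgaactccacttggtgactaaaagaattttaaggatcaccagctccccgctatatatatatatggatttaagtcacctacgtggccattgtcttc

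HSFA7A carried the same 13 letters at both places. A further 2-unit element lay downstream in HSFA2 and in HSFA7B. HSFA1E had a 2-unit element alone, and HSFB2A a DRE core alone, and both windows are shown for contrast, on the plus strand at chr3:673128-673427 and chr5:24915507-24915806.
HSFA1E: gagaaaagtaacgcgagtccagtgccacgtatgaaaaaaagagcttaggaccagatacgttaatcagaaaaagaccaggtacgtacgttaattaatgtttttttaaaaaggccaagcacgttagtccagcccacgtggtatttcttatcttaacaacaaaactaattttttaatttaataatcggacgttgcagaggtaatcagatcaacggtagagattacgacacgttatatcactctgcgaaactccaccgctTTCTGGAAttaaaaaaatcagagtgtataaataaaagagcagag
HSFB2A: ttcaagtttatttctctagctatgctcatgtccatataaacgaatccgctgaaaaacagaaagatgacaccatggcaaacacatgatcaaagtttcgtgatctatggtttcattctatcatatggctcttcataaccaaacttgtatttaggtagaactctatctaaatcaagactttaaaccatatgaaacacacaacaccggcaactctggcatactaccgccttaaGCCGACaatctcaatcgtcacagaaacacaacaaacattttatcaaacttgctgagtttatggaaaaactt

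A 2-unit element was held by 4 of the 10 factors, against 19.3% of all protein-coding genes, and a DRE core by 2 of the 10, against 8.24%. The other DRE core was in HSFA1A. HSFA1B, HSFA1D, HSFA3 and HSFB1 held none of these letters in the window, which says nothing of sites farther upstream. A match is a string of letters and not a measured binding site.

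**Figure D1:**
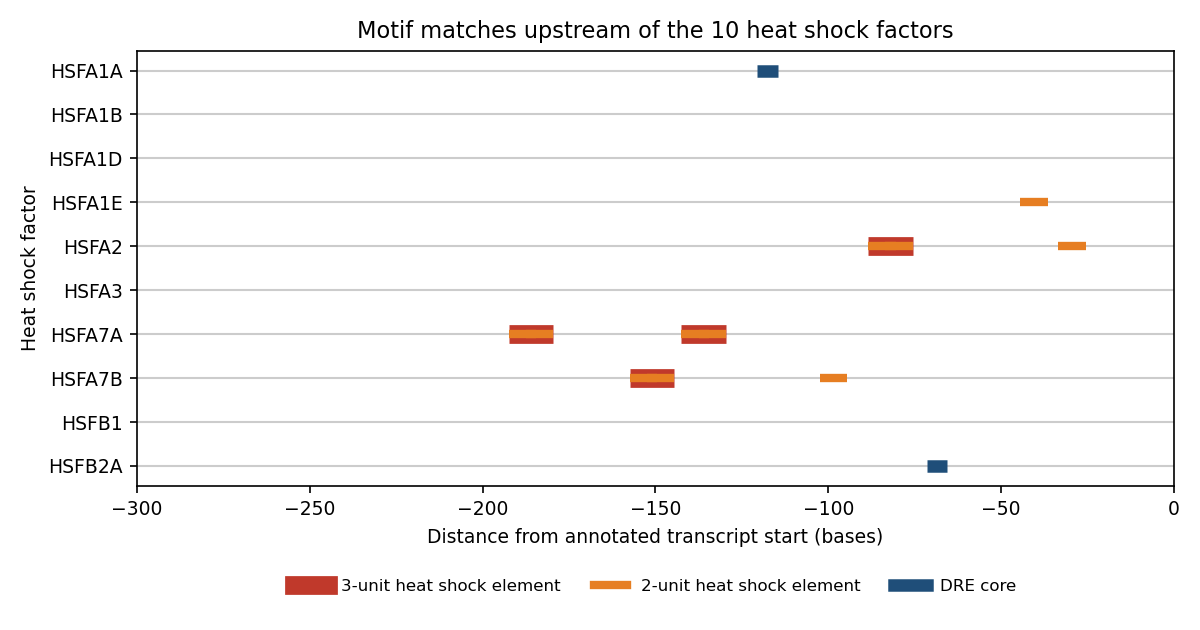
Motif matches in the 300 bases before the annotated transcript start of the 10 heat shock factors. The horizontal axis gives the distance from the start in bases, each row is a gene, and red, orange and blue blocks mark 3-unit elements, 2-unit elements and DRE cores. HSFA2, HSFA7A and HSFA7B are the rows with red blocks.

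The libraries held 22.5 to 59.7 estimated reads in units of 1e6, and replicates of a group correlated at 0.983 to 0.995 over log2 values. Values are the authors' normalized signal, scaled within each genotype's table, so levels of the factors were compared within a table only. Their sum per library was 37.1 to 45.6 under SNP, against 25.7 to 29.3 under Mock, in units of 1e6. Fold changes therefore depend on the scaling. Scaling every library to 1 total would shift the median log2 change of all genes to -0.74 in ap1/cal and -0.51 in Col-0, against -0.04 and -0.02 as deposited, and the median difference to -0.23, against -0.02. Changes are given on the log2(value + 1) scale. A gene was called when limma with Benjamini-Hochberg adjustment gave an adjusted p under 0.05 and the change passed a fold of 1.5. The SE of a log2 change comes from limma's moderated spread, shared by all groups, and is therefore equal in both genotypes. The n beside it is the number of libraries per group. The study's methods call its RNA-seq replicates biological, while the labels do not say that they were separate cultures, so p-values measure the spread between these libraries. The 4 leaf and photosynthesis genes summed to 1017800 to 1227200 in ap1/cal SNP against 845050 to 1117800 in ap1/cal Mock. In Col-0 they summed to 1000700 to 1060700 under SNP against 776890 to 918500 under Mock. All 4 were detected in every group, but they did not move together. GL1 was called higher in ap1/cal (2.04) and Col-0 (1.36), LHCB2.1 in ap1/cal alone (0.70) and RBCS1A in Col-0 alone (0.67). CAB1 had negative log2 changes, -0.14 in ap1/cal and -0.39 in Col-0, and was called in neither. The 6 root genes summed to 1084 to 1308 in ap1/cal SNP against 1975 to 2267 in ap1/cal Mock, and to 1160 to 1568 in Col-0 SNP against 1729 to 2452 in Col-0 Mock. Of these 6, the root hair genes COBL9 and EXPA7 fell, with log2 changes of -5.86 and -6.81 in ap1/cal and -4.79 and -3.87 in Col-0. CASP1, CASP2 and WER were called in neither genotype, and MYB36 was called higher in Col-0 (0.79). The part of these markers in the results was not tested. The 2 floral organ genes summed to 18.3 to 43.1 over all libraries. In whole seedlings, fewer cells of a type and less RNA per cell cannot be told apart.

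Under SNP 8 of the 10 factors were higher in both genotypes. In ap1/cal 8 were higher and 1 lower, where 29.8% and 33% of all genes tested were called in those directions and 62.9% in either. In Col-0 8 were higher and 0 lower, against 26.9% and 29.1% of all genes, and 55.9% in either. Both counts of 8 include HSFA7B, which had to differ between the treatments because of the filter. The median log2 change of the 10 was 3.36 in ap1/cal and 2.47 in Col-0. HSFA2 had the largest change of the 10 in both genotypes. HSFA1A was called in neither genotype, and HSFA1B was the factor called lower in ap1/cal.

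**Figure D2:**
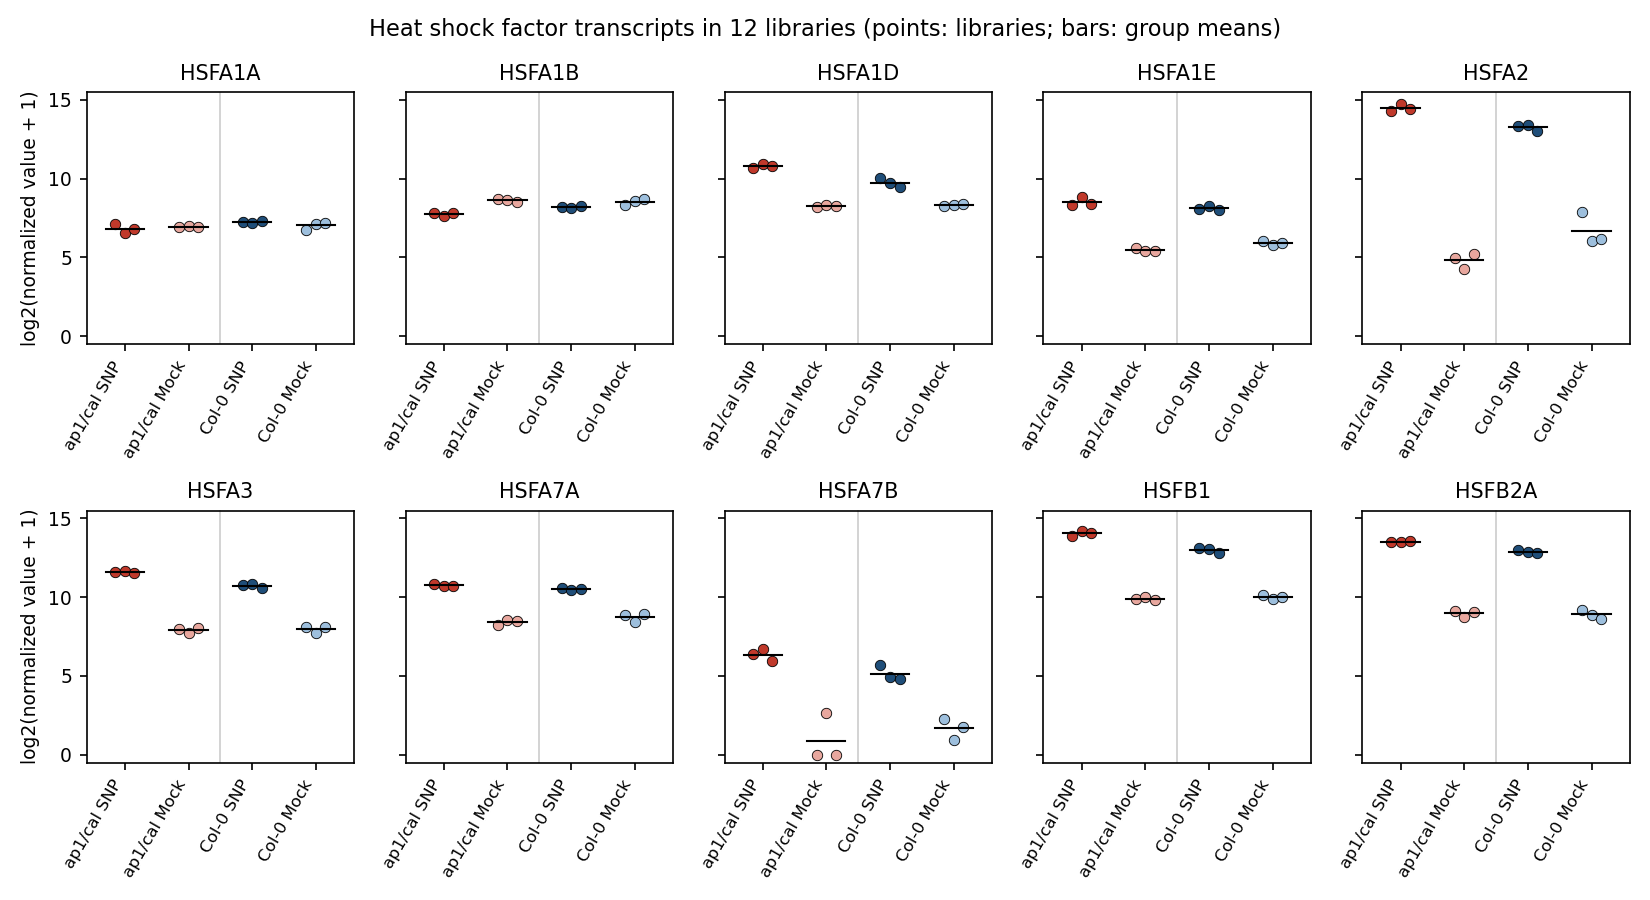
Transcript values of the 10 heat shock factors in 12 libraries, as log2(normalized value + 1) on the vertical axis. Points are libraries, bars are group means, and ap1/cal and Col-0 are separated by a grey line because they were normalized apart. In both genotypes SNP and Mock points overlap for HSFA1A, and SNP points lie below Mock points for HSFA1B and above them for the others. The share of all genes with such a separation was not counted, so it only describes these points. By another measure shifts were common, since of 20623 genes tested, 16655 in ap1/cal and 15680 in Col-0 had a limma adjusted p under 0.05.

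The 4 HSFA1 genes, which encode the activators present before stress, did not move together. HSFA1D had values of 1633, 1994 and 1767 in ap1/cal SNP against 294, 326 and 310 in ap1/cal Mock. In Col-0 it had 1033, 841 and 722 under SNP against 309, 321 and 336 under Mock. Every SNP library was above every Mock library. The log2 change was 2.53 ± 0.12 (SE, n = 3) in ap1/cal and 1.41 ± 0.12 in Col-0, with limma adjusted p of 1.9e-10 and 1.1e-07.

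HSFA1E had the lowest level per kb of exon of the 4 under Mock. Its values were 327, 456 and 330 in ap1/cal SNP against 48.4, 40.8 and 42.4 in ap1/cal Mock. Col-0 had 268, 301 and 259 under SNP against 65.5, 54.5 and 58.9 under Mock. The groups did not overlap in either genotype. The log2 changes were 3.04 ± 0.15 in ap1/cal and 2.19 ± 0.15 in Col-0 (SE, n = 3; limma adjusted p = 3.4e-10 and 1.3e-08).

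HSFA1A and HSFA1B lacked this rise. HSFA1A had 139, 91.1 and 113 in ap1/cal SNP against 119, 127 and 120 in ap1/cal Mock, and 152, 145 and 160 in Col-0 SNP against 106, 139 and 148 in Col-0 Mock. The treatments overlapped in both genotypes. These values rest on 55 to 292 estimated reads per library. The log2 change was -0.11 in ap1/cal, with a 95% interval of -0.46 to 0.24, and 0.23 in Col-0, with an interval of -0.12 to 0.58 (limma adjusted p = 0.544 and 0.218). In ap1/cal the value was -0.48 with upper-quartile scaling and -0.81 with library-size scaling, which called it lower, and it turned to 0.044 without ap1/cal SNP replicate 2. In Col-0 no direction holds across scalings, since library-size scaling gave -0.27 and upper-quartile scaling -0.030.

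HSFA1B had 227, 198 and 229 in ap1/cal SNP against 427, 393 and 368 in ap1/cal Mock. In Col-0 it had 299, 283 and 310 under SNP against 323, 391 and 412 under Mock. Every SNP library was below every Mock library in both genotypes. The log2 change was -0.86 ± 0.11 (SE, n = 3; limma adjusted p = 6.0e-06) in ap1/cal. In Col-0 it was -0.33 ± 0.11 (adjusted p = 0.0142), short of the fold of 1.5, and past it under library-size scaling (-0.82) and upper-quartile scaling (-0.59). HSFA1B overlaps AT5G16830 on the opposite strand, and whether the authors' counting used the strand is not given in the sources used here, although no stretch of 75 bases was shared between their exons.

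HSFA2 encodes the factor that amplifies and sustains the heat response. It had 20028, 27600 and 22082 in ap1/cal SNP against 29.8, 18.7 and 35.6 in ap1/cal Mock. Col-0 had 10363, 10942 and 8340 under SNP against 241, 64.2 and 71.4 under Mock. SNP libraries were far above Mock libraries throughout, and Col-0 Mock replicate 1 stood above the other Mock libraries. The log2 change was 9.68 ± 0.39 in ap1/cal and 6.55 ± 0.39 in Col-0 (SE, n = 3; limma adjusted p = 4.7e-11 and 3.4e-09), which is 820-fold and 94.0-fold. Without Col-0 Mock replicate 1 the Col-0 change was 7.16.

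HSFA3, which is driven by DREB2A and extends the response to drought, rose as well. Its values were 3051, 3274 and 3026 in ap1/cal SNP against 254, 211 and 259 in ap1/cal Mock. Col-0 had 1771, 1808 and 1535 under SNP against 280, 211 and 271 under Mock. No SNP library reached down to a Mock library. The log2 changes were 3.69 ± 0.11 in ap1/cal and 2.75 ± 0.11 in Col-0 (SE, n = 3; limma adjusted p = 4.6e-12 and 1.2e-10). HSFA3 overlaps AT5G03710 on the opposite strand, again with no stretch of 75 exonic bases in common.

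HSFA7A and HSFA7B are a related pair of heat-inducible activators that differed widely in level. HSFA7A had 1837, 1660 and 1707 in ap1/cal SNP against 301, 378 and 351 in ap1/cal Mock, and 1534, 1428 and 1446 in Col-0 SNP against 469, 348 and 477 in Col-0 Mock. Its groups did not overlap, and the log2 change was 2.34 ± 0.12 in ap1/cal and 1.78 ± 0.12 in Col-0 (SE, n = 3; limma adjusted p = 4.6e-10 and 1.0e-08). HSFA7A, which was already expressed under Mock, had the smallest fold among the induced factors in ap1/cal.

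HSFA7B was close to the detection limit under Mock. It had 82.0, 104 and 61.4 in ap1/cal SNP against 0, 5.21 and 0 in ap1/cal Mock. In Col-0 it had 50.6, 29.9 and 26.8 under SNP against 3.90, 0.94 and 2.42 under Mock. The Mock values stand for 0, 12 and 0 reads in ap1/cal and 5, 1 and 3 reads in Col-0, against 80, 63 and 32 reads in ap1/cal SNP and 29, 36 and 23 in Col-0 SNP. The groups did not overlap. The fitted log2 changes of 5.47 in ap1/cal and 3.47 in Col-0 depend on the pseudocount (limma adjusted p = 2.2e-06 and 1.9e-04). The filter noted above let HSFA7B be tested only through its SNP libraries, so these p-values carry that selection. The changes were 3.76 and 2.43 with a pseudocount of 5, and the ap1/cal change was 6.35 without ap1/cal Mock replicate 2.

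Both class B factors rose with the activators. HSFB1, a repressor and coregulator, had 15405, 19122 and 16930 in ap1/cal SNP against 944, 1019 and 890 in ap1/cal Mock. In Col-0 it had 8976, 8458 and 7287 under SNP against 1115, 942 and 1042 under Mock. It was high in every SNP library, and its spread between replicates was small. The log2 change was 4.17 ± 0.10 in ap1/cal and 2.99 ± 0.10 in Col-0 (SE, n = 3; limma adjusted p = 5.0e-13 and 1.5e-11).

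HSFB2A, a class B repressor, had 11348, 11503 and 11972 in ap1/cal SNP against 556, 437 and 531 in ap1/cal Mock. Col-0 had 7979, 7507 and 7004 under SNP against 593, 469 and 395 under Mock. The treatments did not overlap. The log2 changes were 4.52 ± 0.13 in ap1/cal and 3.96 ± 0.13 in Col-0 (SE, n = 3; limma adjusted p = 1.8e-12 and 1.0e-11), and in Col-0 only HSFA2 changed more among the 10.

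**Figure D3:**
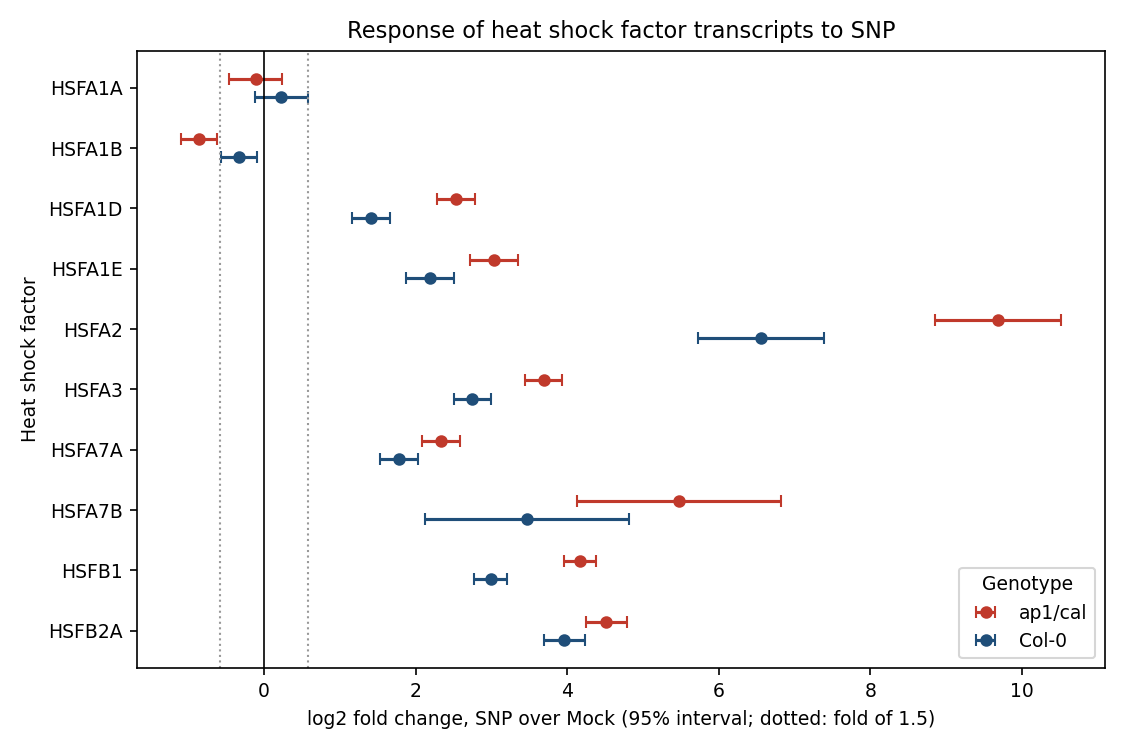
Log2 fold change, SNP over Mock, of the 10 heat shock factors on the horizontal axis, with 95% intervals. Red points are ap1/cal and blue points Col-0, and dotted lines mark a fold of 1.5. The ap1/cal point lies to the right of the Col-0 point for 8 factors, and HSFA1A and HSFA1B are the exceptions.

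The difference of the SNP response, ap1/cal minus Col-0, was tested for each factor in the same limma fit. It was called higher for 5 of the 10 and lower for 0, where 7.6% and 6.97% of all genes tested were called in those directions and 14.6% in either. The median difference of the 10 was 0.89, against -0.02 for all genes. HSFA2 differed by 3.13 ± 0.54 on the log2 scale (SE; adjusted p = 0.00152). Its Mock values were 18.7 to 35.6 in the ap1/cal table and 64.2 to 241 in the Col-0 table, which were normalized apart. The difference was 2.52 without Col-0 Mock replicate 1, still called.

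HSFB1 differed by 1.17 ± 0.14 (SE; limma adjusted p = 1.6e-04) and HSFA1D by 1.12 ± 0.16 (adjusted p = 5.1e-04). For HSFB1 the Mock values were 890 to 1019 in ap1/cal Mock and 942 to 1115 in Col-0 Mock, in separately normalized tables. HSFA3 differed by 0.94 ± 0.16 (adjusted p = 0.00142) and HSFA1E by 0.84 ± 0.21 (adjusted p = 0.0115). Tested against a fold of 1.5 rather than against no difference, 2 of the 10, HSFA2 and HSFB1, stayed past the threshold, beside 338 of all 20623 genes tested.

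The other 5 factors were not called. HSFA7A differed by 0.56 (95% interval 0.20 to 0.92; limma adjusted p = 0.0278) and HSFB2A by 0.56 (0.17 to 0.94; adjusted p = 0.0397), both under the fold of 1.5. HSFA1B differed by -0.53 (-0.86 to -0.20; adjusted p = 0.0242), also under that fold. With library-size scaling (-0.74) and upper-quartile scaling (-0.64) HSFA1B passed the fold and was called lower. HSFA7B differed by 2.00 with an interval of 0.10 to 3.90 (adjusted p = 0.119), the widest of the 10. HSFA1A differed by -0.34 (-0.83 to 0.16; adjusted p = 0.315).

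Some of the differences that were not called became called once a single library was left out, and no called one was lost. HSFA7A was called without Col-0 Mock replicate 2 (0.71), Col-0 SNP replicate 1 (0.59), ap1/cal Mock replicate 2 (0.63) or ap1/cal SNP replicate 2 (0.59). HSFB2A was called without Col-0 Mock replicate 3 (0.69), Col-0 SNP replicate 1 (0.60), ap1/cal Mock replicate 1 (0.62) or ap1/cal Mock replicate 3 (0.59). HSFA1B was called without Col-0 Mock replicate 3 (-0.60), and HSFA7B without ap1/cal Mock replicate 2 (2.88). The 3 seed marker genes, which encode storage proteins and an oleosin, summed to 103 to 440 in ap1/cal SNP and 33.7 to 264 in ap1/cal Mock. They summed to 13.6 to 23.2 in Col-0 SNP and 4.48 to 9.54 in Col-0 Mock, in the table normalized apart, and their part in the difference was not tested.

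**Figure D4:**
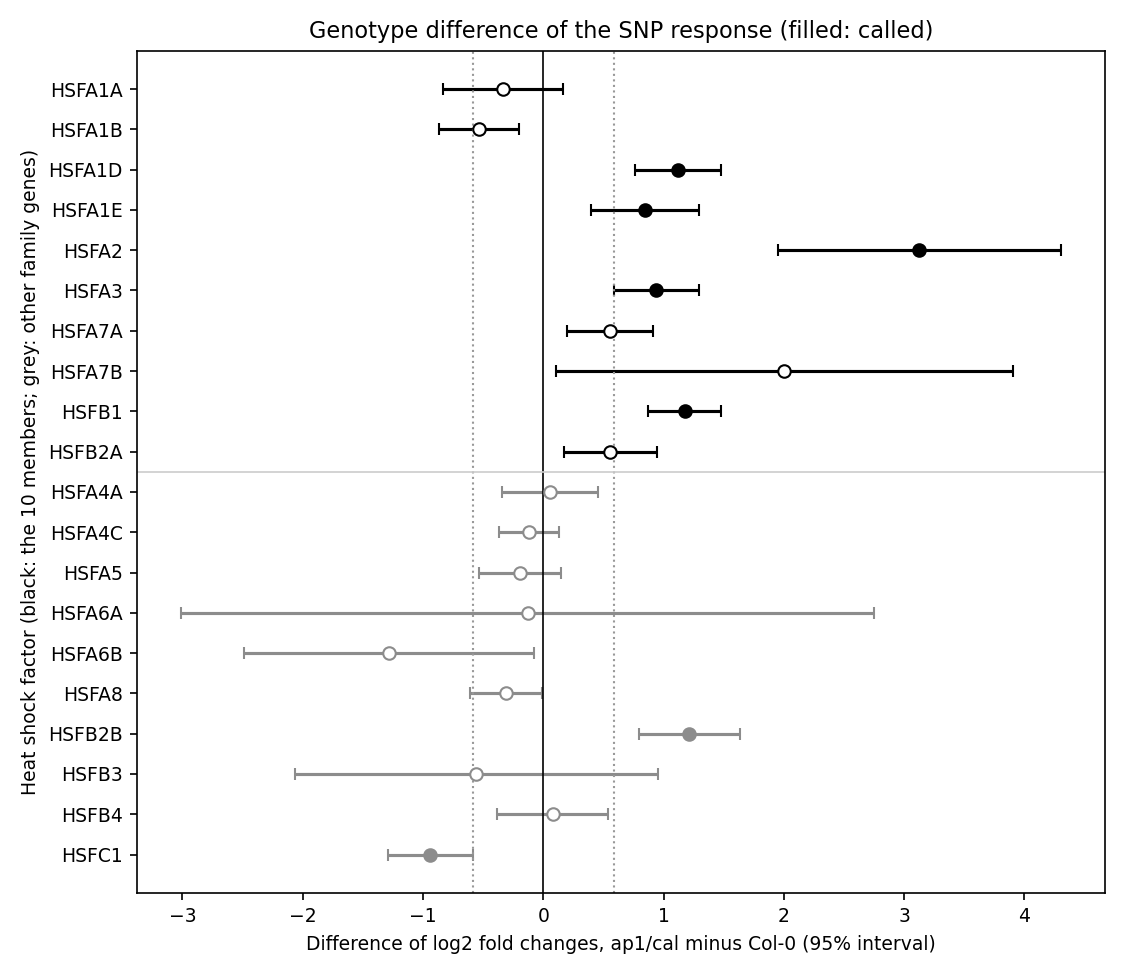
Difference of the log2 fold changes, ap1/cal minus Col-0, with 95% intervals, for the 10 factors (black) and 10 other members of the family (grey). Filled points were called and dotted lines mark a fold of 1.5. Of the 10 factors 5 are filled to the right of 0, and of the other 10 HSFB2B is filled to the right and HSFC1 to the left.

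Levels per kb of exon were compared among the 10 within each table. Under Mock the order in ap1/cal was HSFB1, HSFA7A, HSFB2A, HSFA1B, HSFA1D, HSFA3, HSFA1A, HSFA1E, HSFA2 and HSFA7B. HSFB1 had 534 ± 36.3 per kb and HSFA2 14.9 ± 4.57 (SD, n = 3). HSFA7A and HSFB2A were the neighbours whose libraries overlapped. In Col-0 Mock the order differed only in HSFA2, which stood in place 8, above HSFA1E. There the overlapping neighbours were HSFA7A with HSFB2A, HSFA1B with HSFA1D, and HSFA1A with HSFA2.

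Under SNP, HSFA2 led in both genotypes per kb of exon, at 12386 ± 2087 in ap1/cal and 5267 ± 728 in Col-0 (SD, n = 3). HSFB1 and HSFB2A followed, then HSFA7A, HSFA3 and HSFA1D. In ap1/cal SNP the order ended with HSFA1E, HSFA1B, HSFA7B and HSFA1A, and in Col-0 SNP with HSFA1B, HSFA1E, HSFA1A and HSFA7B. HSFA2 overlapped HSFB1 in both genotypes. HSFB1 with HSFB2A and HSFA1B with HSFA1E overlapped in Col-0, and HSFA7A with HSFA3 and HSFA7B with HSFA1A in ap1/cal. The lead in Col-0 depended on the length used. HSFA2 has 1876 bases of exon and 1069 of coding sequence, and HSFB1 has 1783 and 855. Per coding length the mean of HSFB1 stood above that of HSFA2 in Col-0 SNP, while HSFA2 still led in ap1/cal SNP.

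**Figure D5:**
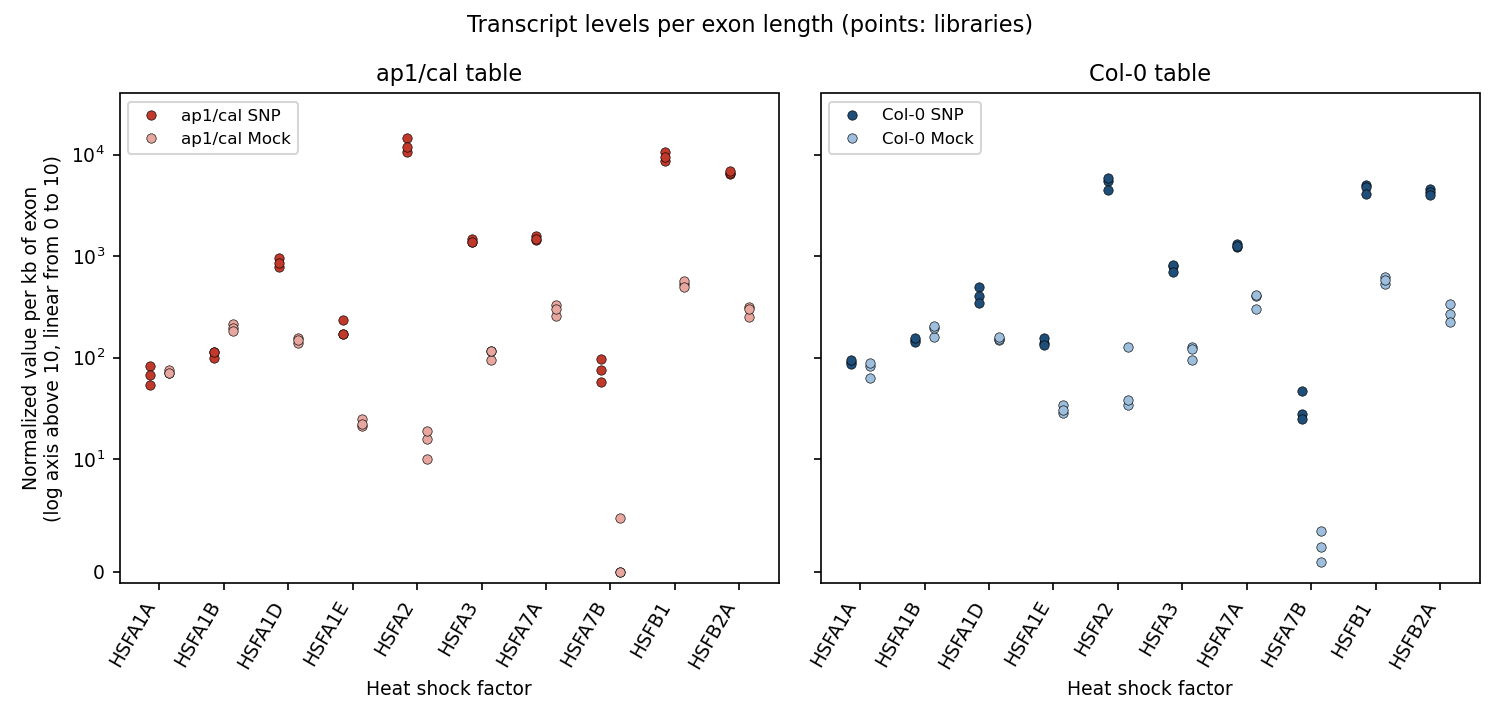
Normalized value per kb of exon of the 10 factors, ap1/cal at the left and Col-0 at the right. The vertical axis is logarithmic above 10 and linear from 0 to 10, points are libraries, and dark and light points are SNP and Mock. HSFA2 is the highest column of dark points in both panels, and its light points in ap1/cal lie below those of every other factor but HSFA7B.

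The makeup of the 10 shifted with SNP. Their summed level per kb of exon was 29974 to 36348 in ap1/cal SNP against 1666 to 1705 in ap1/cal Mock, and 15222 to 18151 in Col-0 SNP against 1685 to 2033 in Col-0 Mock. HSFA2 made up 35.6 to 40.5% of that sum in ap1/cal SNP against 0.584 to 1.14% in ap1/cal Mock. In Col-0 it made up 29.2 to 32.9% under SNP against 2.03 to 6.31% under Mock. The 4 HSFA1 genes made up 3.70 to 3.83% in ap1/cal SNP against 25.5 to 26.6% in ap1/cal Mock, and 4.43 to 4.81% in Col-0 SNP against 19.9 to 27.2% in Col-0 Mock. HSFB1 and HSFB2A together made up 47.5 to 50.7% in ap1/cal SNP and 48.1 to 50.2% in ap1/cal Mock, ranges that overlapped. In Col-0 they made up 50.9 to 53.1% under SNP against 43.3 to 47.4% under Mock, which did not.

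The rest of the family has 11 genes, of which HSFA9, a seed factor, has no expression value analysed here. Of the other 10, 3 were higher and 2 lower in ap1/cal, and 4 were higher and 1 lower in Col-0, with medians of 0.44 and 0.50 beside -0.04 and -0.02 for all genes. The 5 of 10 called in each genotype stand beside 62.9% of all genes in ap1/cal and 55.9% in Col-0. HSFA4A, an activator linked to reactive oxygen signalling, had 5971, 5373 and 6020 in ap1/cal SNP against 342, 303 and 350 in ap1/cal Mock. Its log2 change was 4.12 in ap1/cal and 4.07 in Col-0, and the difference of 0.06 had a 95% interval of -0.34 to 0.45. HSFA4C rose by 2.27 in ap1/cal and 2.39 in Col-0, with a difference of -0.12 (-0.37 to 0.13).

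HSFB2B, the class B relative of HSFB2A, rose by 4.51 in ap1/cal and 3.29 in Col-0, and the difference of 1.21 was called (limma adjusted p = 9.2e-04). Exons of neighbours on the other strand share 16.5% of its stretches of 75 bases. HSFC1, the class C factor, fell by 1.11 in ap1/cal (limma adjusted p = 8.6e-07), against -0.17 in Col-0 (adjusted p = 0.196), with a called difference of -0.94. HSFC1 shares 92.1% of its stretches with an antisense gene, so its values are uncertain. HSFA8 was called higher in Col-0 (0.89) and lay under the fold in ap1/cal (0.58), and it passed there without ap1/cal Mock replicate 1 (0.66) or ap1/cal SNP replicate 3 (0.64). Library-size scaling ended the Col-0 call (0.40). HSFA6B fell by 2.32 in ap1/cal and by 1.04 in Col-0, the second call being lost without any of 4 libraries, and it rested on 2 to 77 reads per library.

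The regulators of these factors were described from a list of 15 genes, written with earlier results of these data known. SNP gave 14 calls higher and 0 lower in ap1/cal, and 13 and 0 in Col-0, with medians of 3.11 and 1.82, where 29.8% and 26.9% of all genes were called higher. With library-size scaling 10 and 9 were called higher, beside 3122 and 3210 of all 20623 genes tested. With upper-quartile scaling 11 and 11 were, beside 4261 and 4084 of all genes. ROF2, an FKBP, had 57312, 77274 and 59981 in ap1/cal SNP against 481, 403 and 326 in ap1/cal Mock. Col-0 had 23133, 24214 and 19203 under SNP against 1388, 782 and 761 under Mock. Its log2 change was 7.33 in ap1/cal and 4.55 in Col-0, and the difference of 2.78 was the largest on the list (limma adjusted p = 9.4e-05). ROF1, its relative, rose by 4.01 in ap1/cal and 2.76 in Col-0.

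DREB2A, the activator upstream of HSFA3, rose by 6.11 in ap1/cal and 5.20 in Col-0, a called difference of 0.91 (limma adjusted p = 2.7e-04). MBF1C, a heat-induced coactivator that shares 11.8% of its stretches with other genes, rose by 6.97 in ap1/cal and 5.33 in Col-0. HSBP, the binding protein that limits HSF trimers, rose by 0.91 in ap1/cal and 0.88 in Col-0, and library-size scaling brought both under the fold, to 0.20 and 0.38. DRIP1 and DRIP2, the ligases that mark DREB2A for breakdown, rose by 1.17 and 1.64 in ap1/cal and by 0.86 and 1.37 in Col-0. Library-size scaling took DRIP1 below the fold, to 0.47 in ap1/cal and 0.37 in Col-0. It also ended the calls of NF-YC10 in both genotypes (-0.01 in ap1/cal and 0.17 in Col-0), of HSP70-1 in ap1/cal (0.10) and of HSP90.3 in Col-0 (0.34). SUM1, the SUMO precursor, was called in neither genotype.

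The difference was called higher for 9 of the 15 regulators and lower for 0, beside 7.6% and 6.97% of all genes. With library-size scaling it was called higher for 6, beside 874 of all 20623 genes tested. DREB2C differed by 0.69 (limma adjusted p = 0.0708) and was called with the replicate number as a block (adjusted p = 0.0265) and without Col-0 Mock replicate 2 (0.98). A list of 8 known targets was called higher throughout, 8 of 8 in ap1/cal and in Col-0, with medians of 9.59 and 5.86, and the difference was called higher for 8 of 8. The shares of all genes called higher were 29.8% in ap1/cal, 26.9% in Col-0 and 7.6% for the difference. The targets were listed with earlier results of these data known, so these counts describe them and are no independent test. APX2, the ascorbate peroxidase that HSFA2 activates, had 1696, 3122 and 2090 in ap1/cal SNP against 0, 3.04 and 1.93 in ap1/cal Mock, and 849, 982 and 660 in Col-0 SNP against 26.5, 16.0 and 14.5 in Col-0 Mock. The ap1/cal Mock values stand for about 0, 7 and 2 reads, so its fold change depends on the pseudocount. In Col-0 Mock, replicate 1 held the highest value for 8 of 8 targets, 11 of 15 regulators, 6 of the 10 factors and 5 of 10 other heat shock factors. The median ratio of replicate 1 to the mean of the other Col-0 Mock libraries was 1.80, 1.07, 1.15 and 1.05 in these lists. The share of all genes highest in that library was not counted, and what set it apart was not tested. The 3-unit element was found upstream of 3 of the 10 factors, 2 of 15 regulators (HSP90.1 and DREB2A) and 1 of 8 targets (GOLS1), and in 0 of the 11 other heat shock factors.

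Genes whose profile was most like that of HSFA2 over the 12 libraries, after the mean of each table was removed, were AT1G54050, AT1G73480, AT5G37670, AMT2 (AT2G38290) and HSP101. Their Pearson r was 0.999 to 1.00 on log2 values, and for HSP101 it was 0.999. For HSFA1D they were AT4G34660, AT1G74320, TRP1 (AT5G59430), RSH3 (AT1G54130) and AT1G77840, at r of 0.998 to 0.999. These libraries share the contrast of SNP with Mock, and 4072 and 3366 genes had r over 0.95 with HSFA2 and with HSFA1D, so the order among them is a description. Ranked by Spearman's rho, 0 of the 5 were kept for either factor.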

How the data were processed

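Poly(A) RNA of whole seedlings was sequenced in 12 libraries, 4 groups of 3, grouped by genotype, treatment and replicate number in the labels. The authors' notes name FastQC, STAR, TAIR10 and DESeq2. The counting tool and its strand setting are not given in the sources used here, and the methods describe ap1/cal shoot apices. Each genotype has a deposited table of gene values, a signal that the authors normalized within that table. In genes with 1 transcript, 100% of values up to 50 were whole multiples of a step per library (tolerance 0.001), but only 66.8 to 70.2% over all genes, so no count test was run and read numbers are estimates.

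Values were fitted as log2(value + 1) with limma 3.58.1 (R 4.3.3), all 12 libraries in 1 model with a mean-variance trend, over genes with at least 10 in 3 or more libraries. All genes entered the Benjamini-Hochberg adjustment. The fit was tested on simulated data. The members, lists and tests were chosen with earlier results of these data known. The 10 members, the lists of other heat shock factors, regulators and targets, and the 5 genes most like HSFA2 and HSFA1D were named by rule. Alternatives were 2 scalings, pseudocounts of 0.5 and 5, no filter and a filter of 50, no trend, fits per genotype, other call rules, a replicate block, removal of a length trend and each library left out. Same-numbered SNP and Mock libraries deviated together only weakly in ap1/cal (r = 0.12, 0.12 and 0.17), where pairs with different numbers had r of -0.14 to 0.01. The replicate block paired them by number in both genotypes, and the main fit paired them in neither. Elements were searched in RefSeq's TAIR10.1 sequence. Protein features were not analysed here.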

Additional observations from a re-analysis of the deposited data

Results flagged for a closer look

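The response to SNP differed between ap1/cal and Col-0, by the test of the difference itself in limma with Benjamini-Hochberg adjustment over all genes, for 24 of the 43 tested genes of the 4 lists, beside 14.6% of all genes tested. The lists were chosen with earlier results of these data known, so this count is a description. Values are differences of log2 fold changes, ap1/cal minus Col-0. Among heat shock factors these were HSFA1D (1.12), HSFA1E (0.84), HSFA2 (3.13), HSFA3 (0.94), HSFB1 (1.17), HSFB2B (1.21) and HSFC1 (-0.94). Among regulators they were HSP90.1 (2.22), HSP90.2 (1.29), HSP90.3 (0.73), HSP70-1 (0.76), ROF1 (1.26), ROF2 (2.78), MBF1C (1.65), DREB2A (0.91) and DREB2B (0.74). Among targets they were HSP101 (2.65), APX2 (4.53), GOLS1 (2.32), HSA32 (2.33), HSP22.0 (4.47), HSP21 (4.88), HSP17.6A (5.17) and HSP70-4 (2.51). HSP90.2, HSP90.3 and DREB2B share exonic stretches of 75 bases with other genes (11.5%, 16.6% and 68.0%), so their values are uncertain. APX2, HSP21 and HSP22.0 had at most 11 reads in any ap1/cal Mock library, and their differences were 3.28, 4.14 and 3.89 with a pseudocount of 5. HSP90.3 and HSP70-1 fell under the fold of 1.5 with library-size scaling (0.52 and 0.55), as did DREB2B (0.53).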

How the results depend on the processing

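Of the 10 factors, 9 were called in ap1/cal (10 with library-size scaling) and 8 in Col-0 (9 with library-size or upper-quartile scaling and at any fold), and 8 were higher in both genotypes under every alternative run. The genotype difference was called for 5, all higher. It was called for 6 with either scaling, which added HSFA1B as lower, and for 6 with a pseudocount of 5, which added HSFA7B as higher. At any fold it was called for 8, 7 higher and 1 (HSFA1B) lower. It was called for 2 (HSFA2 and HSFB1) when tested against a fold of 1.5, and for 5 to 7 with each library left out. Over all genes, library-size scaling called 3122 higher and 11154 lower in ap1/cal, where the authors' scaling gave 6155 and 6813, and 3210 and 9458 in Col-0, against 5538 and 5991. For the difference it called 874 and 2806, against 1568 and 1438, and upper-quartile scaling 1138 and 2062. Over all genes the test against a fold of 1.5 called 338 differences and any fold 4817, against 3006. The replicate block paired libraries by number in both genotypes, although same-numbered Col-0 libraries did not deviate together (r = 0.06, 0.06 and -0.05). It called 9, 8 and 5 factors, and changed no other call of the named genes than that of DREB2C. HSFA1A changed sign in Col-0 with library-size scaling (-0.27) and upper-quartile scaling (-0.030), and ranged from -0.26 to 0.044 in ap1/cal with each library left out. With coding length, 6 of 10 factors kept their place in the order of levels in Col-0 Mock, and HSFB1 stood above HSFA2 in Col-0 SNP. Library-size scaling kept 4 of the 5 genes most like HSFA2 and 3 of those most like HSFA1D. For HSFA7B, 0 to 12 Mock reads per library limit the fold change.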
